A study of Drosophila melanogaster with 37 samples.

Results

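The sites described here lie on the autosomal arms of S2 cells. The GAGA factor GAF was called there without CLAMP and outside the regions called for MSL3. The sites number 1299 of the 3219 GAF control sites, or 40.4%. A control site of an antibody is a region built by merging the peaks of its GFP RNAi libraries that share at least 1 bp, kept if at least 2 of those libraries called it. GAF control sites on 2L, 2R, 3L or 3R were taken when they touched none of the 2751 CLAMP control sites and none of the 14324 MSL3 control sites. The sites were thus chosen by the peak calls of the GFP RNAi libraries of all 3 antibodies, and values from these libraries are given as a description only.

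GAF, encoded by trl, is a zinc-finger protein that binds GAGA repeats and is known at promoters and Polycomb response elements, where it helps to keep DNA accessible. CLAMP is another zinc-finger protein that binds GA-rich repeats and guides the male-specific lethal (MSL) complex to the male X chromosome, where the complex raises transcription to compensate for the single X. MSL3 is the chromodomain subunit of that complex.

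S2 cells are a male embryonic line of Drosophila melanogaster. All cultures received double-stranded RNA at 4.5 ug/mL, against GFP as the control, against GAF (trl) or against CLAMP, and carried no other stated change. Crosslinked chromatin was precipitated with an antibody to GAF, CLAMP or MSL3. Peak lists were at hand for 25 of the 37 samples, and the other 12 are inputs that were not analysed here. GAF had 3 lists under GFP RNAi, 2 under GAF RNAi and 3 under CLAMP RNAi, CLAMP had 3, 2 and 2, and MSL3 had 4, 3 and 3. No label says that replicates are separate cultures, so p-values measure only the spread between these libraries, which may be technical, and all come from 1 cell line.

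Several lists stood apart before any site was counted. On the 6 arms the GAF lists held 2676 to 29233 regions, the CLAMP lists 430 to 10984 and the MSL3 lists 103 to 33316, and the read depth behind them is unknown. GAF RNAi replicate 2 of the GAF antibody held 18267 regions, of which 12.6% lay at a GAF control site, against 61.0% of the 4220 regions in replicate 1 and 59.3% to 90.2% under CLAMP RNAi. GFP RNAi replicate 1 of GAF was longer still, with 29233 regions of which 10.9% were at control sites. MSL3 lists covered from 0.0371% to 27.6% of the 4 autosomal arms. Differences and counts that rest on GAF RNAi replicate 2 are also given without it. How far each RNAi lowered its own protein was not measured in the files used here.

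The GAF-alone sites lay on all 4 arms. Arm 2L held 265 of them, 2R 316, 3L 347 and 3R 371, which is 11.5, 14.9, 14.1 and 13.3 per Mb. They made up 48.7% to 51.2% of the GAF control sites of each arm. Their median width was 470 bp, with a range of 194 to 2555 bp, against 625 bp for the 929 autosomal GAF sites that also carried CLAMP and 405 bp for the 284 GAF-alone sites on X. The widest lay at 2R:14293263-14295817 and was called by all 5 GAF lists of GAF RNAi and CLAMP RNAi.

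The control libraries called most of the GAF-alone sites together. In all 3 GAF control lists 941 of the 1299 sites (72.4%) were present, and a further 311 were in replicates 1 and 2, 28 in replicates 1 and 3 and 19 in replicates 2 and 3. Replicate 1 called 98.5% of the sites, replicate 2 called 97.8% and replicate 3 called 76.1%. The 5 sites of best control rank were at 3R:7430404-7430883, 2L:3545090-3545801, 2R:19546441-19547329, 3L:15503846-15504257 and 3L:9366571-9367232. At the first of these the fold enrichment over background, a ratio computed by the authors' peak caller, was 14.0, 10.3 and 9.01 in the control lists. The same site had folds of 7.03 and 17.0 under GAF RNAi and 11.4, 8.18 and 10.9 under CLAMP RNAi. Folds come from libraries of unknown depth, so those given below describe each list, and tests use calls or the rank within a list. All 5 of these sites stayed called in every GAF list of both RNAi conditions.

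GAF was still called at most of the sites after either RNAi. Under GAF RNAi the 2 lists called 79.5% and 64.1% of the 1299 sites, a mean of 71.8% ± 10.9 (SD, n = 2). Under CLAMP RNAi the 3 lists called 83.4%, 77.8% and 86.8%, a mean of 82.7% ± 4.59 (SD, n = 3). The control mean was 90.8% ± 12.8 (SD, n = 3), from libraries that chose the sites. Replicate 2 of GAF RNAi was the lowest of the 5 lists, while replicate 1 fell within the range of CLAMP RNAi, so the groups overlapped. With each list cut to its strongest 3059 regions, GAF RNAi called 76.2% and 51.2% and CLAMP RNAi 78.1%, 77.8% and 80.4%, and the groups did not overlap.

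The difference of GAF RNAi minus CLAMP RNAi was −10.9 percentage points (two-sided exact permutation test, p = 0.3, where the smallest possible is 0.1; Benjamini-Hochberg p = 0.333 over 3 antibodies). It was no larger than the spread between the 2 GAF RNAi libraries. Without GAF RNAi replicate 2 it was −3.16 points. Counting only regions with a −log10 q of at least 5 turned it to 4.44 points (exact p = 0.8), whereas equal-length lists gave −15.0 points (exact p = 0.1).

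**Figure D1:**
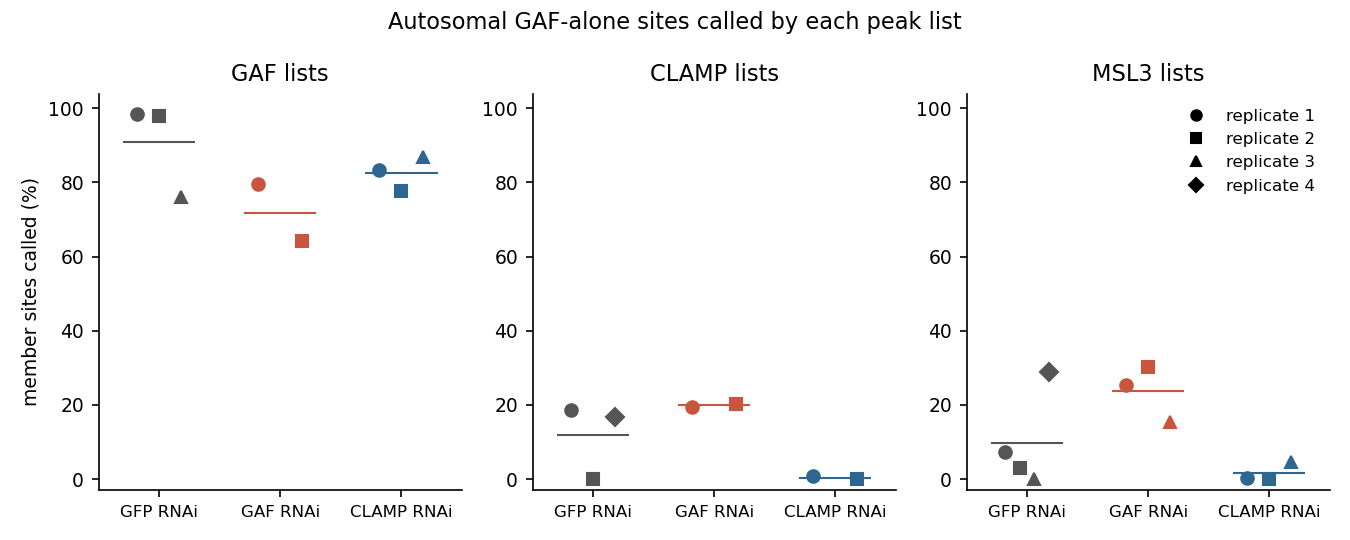
Percentage of the 1299 autosomal GAF-alone sites called by each peak list (points, shaped by replicate number) of GAF, CLAMP and MSL3 under each RNAi, with the mean of each group as a line. GAF lists call 64.1% to 98.5% of the sites in every condition, CLAMP lists of CLAMP RNAi call 0.770% or none, and MSL3 lists range from none to 30.3%.

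Few sites were lost outright. A site counts as lost if all 3 control lists called it and no list of the RNAi did. Under GAF RNAi 28 sites were lost, 2.16% of the GAF-alone sites, against 1.62% of all 3219 GAF control sites. Under CLAMP RNAi 2 sites (0.154%) were lost, against 0.342% of all GAF control sites. Both counts depended on single lists. Without GFP RNAi replicate 3 of GAF they were 145 and 131, without GAF RNAi replicate 1 the first was 264 and without GAF RNAi replicate 2 it was 49. The second was 4 without GFP RNAi replicate 2, 8 without CLAMP RNAi replicate 1 and 6 without CLAMP RNAi replicate 3. Lost sites among all GAF control sites were not counted with lists left out. These values thus show only how the counts depend on single lists. In the control lists the 28 sites had median fold percentiles of 88.6, 29.1 and 15.6, where the medians of all GAF-alone sites were 93.9, 50.6 and 48.3. CLAMP RNAi libraries still called 24, 14 and 24 of the 28.

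The 3 lost sites with the best control rank under GAF RNAi were at 2L:16548101-16548478, 2R:7120336-7120632 and 3R:12117641-12117976. At the 2L site the control folds were 4.22, 4.80 and 3.63, and the CLAMP RNAi folds were 3.75, 4.04 and 4.26. It was thus called in every GAF list except those of GAF RNAi. The 2 sites lost under CLAMP RNAi, at 3L:4839868-4840381 and 2L:1075598-1075904, were also in no GAF list of GAF RNAi. Their control folds were 2.07 to 3.22.

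Of the 1299 sites, 669 (51.5%) were in all 5 GAF lists of the 2 RNAi conditions, against 57.4% of all GAF control sites. None of the 5 called 78 (6%), against 5.90% of all. Both GAF RNAi lists called 727 sites (56%), where 61.1% of all GAF control sites were called by both. Neither called 160 (12.3%), where the share of all was 11.2%. All 3 CLAMP RNAi lists called 965 sites (74.3%), where the share of all was 79.3%, and none called 133 (10.2%), where it was 9.54%. GAF RNAi replicate 2 alone missed 242 sites (18.6%) that the other 4 lists called, and it missed 17.1% of all GAF control sites in that way. Without that list 911 sites (70.1%) were in all 4 others, against 74.5% of all GAF control sites, and 123 (9.47%) in none, against 8.73%. GAF RNAi replicate 1 by itself called 1033 (79.5%), against 81.5%, and missed 266 (20.5%), against 18.5%. The 242 sites were narrower, with a median of 362 bp against 597 bp for the 669.

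Whether a site stayed called followed its control enrichment. The 1280 sites in control replicate 1 were divided into 4 groups of 320 by their fold percentile in that list. In the weakest group the CLAMP RNAi lists called 52.2%, 39.4% and 57.2% of the sites and the GAF RNAi lists called 40.0% and 29.7%. In the strongest group they called 99.7%, 100% and 100%, and 100% and 94.7%. Every one of the 5 lists rose from each group to the next or stood at 100%. Width rose as well, from a median of 349.5 bp in the weakest group to 688 bp in the strongest, and a wider site is touched more easily by a region of another list. The part of width in this pattern was not tested.

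**Figure D2:**
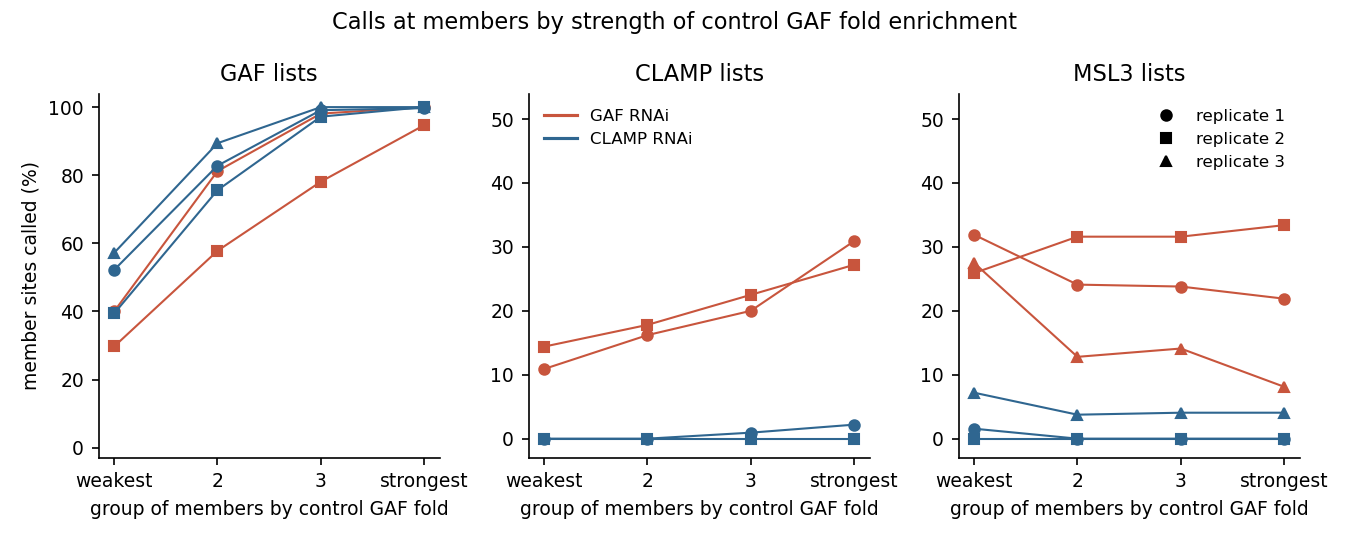
Percentage of GAF-alone sites called by GAF, CLAMP and MSL3 lists after GAF RNAi or CLAMP RNAi (lines by RNAi, point shape by replicate), for the 4 groups of 320 sites ordered by GAF fold percentile in control replicate 1; the vertical scale of the left panel differs from the other two. GAF calls lie between 29.7% and 57.2% in the weakest group and reach at least 94.7% in the strongest, and CLAMP calls under GAF RNAi climb to 30.9% and 27.2%.

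The rule's limit of 2 control lists fell on a steep part of this range. Sites in exactly 2 control lists, 358 in number, were called by the CLAMP RNAi lists at 45.0%, 34.6% and 55.3% and by the GAF RNAi lists at 39.4% and 43.6%. The 941 sites in all 3 control lists were called at 98.1%, 94.2% and 98.8%, and at 94.8% and 71.9%. Just outside the limit, 15443 autosomal GAF regions were in 1 control list only, of which 15335 came from replicate 1. The CLAMP RNAi lists called 0.563%, 0.376% and 1.5% of them, GAF RNAi replicate 1 called 1.23% and GAF RNAi replicate 2 called 25.6%. Replicate 2 of GAF RNAi thus shared many regions with control replicate 1 that no other GAF list held.

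GAF summits lay close together in most lists. Measured from the summit in control replicate 2, GAF summits lay at a median of 10, 10 and 14 bp under CLAMP RNAi and 16 bp in GAF RNAi replicate 1. In GAF RNAi replicate 2 the median was 43 bp, and 56.0% of its summits lay within 50 bp, against 85.5% to 94.0% in the other 4 RNAi lists. Control replicates 1 and 3 were at 18 and 11 bp. The summit of that library was thus less closely placed at the sites it did call.

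**Figure D3:**
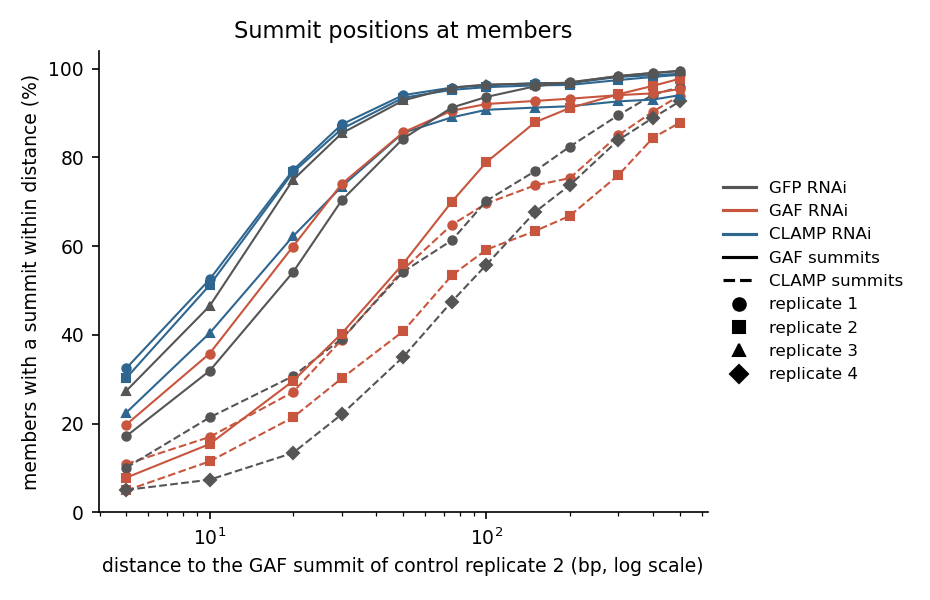
Cumulative percentage of GAF-alone sites whose summit in a list lies within a given distance in bp (log scale) of the GAF summit of control replicate 2, for GAF lists (solid) and CLAMP lists (dashed), coloured by RNAi. GAF RNAi replicate 2 reaches 56.0% at 50 bp, where the other GAF lists are between 84.2% and 94.0%, and CLAMP summits are spread more widely.

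The sites were compared with 3 other classes of GAF control sites, list by list, in the 5 RNAi lists of GAF. At autosomal GAF sites with CLAMP and outside MSL3, GAF RNAi called 93.1% and 80.1% and CLAMP RNAi called 95.7%, 94.2% and 97.2%. GAF-alone sites were lower in 5 of 5 lists, by −13.7 ± 2.54 points (SD, n = 5; range −16.4 to −10.4). The two-sided exact sign-flip test gave p = 0.0625, the smallest that 5 libraries allow, and an adjusted p of 0.0833 over 8 comparisons of classes. In the control lists, which chose the sites, GAF-alone sites were called at 98.5%, 97.8% and 76.1%. Sites with CLAMP were at 99.7%, 99.1% and 86.7% there. A gap of −10.6 points was thus present in control replicate 3, without either RNAi. Of the sites with CLAMP 85.5% were in all 3 control lists, against 72.4% of GAF-alone sites. Among sites in all 3 control lists the difference was −4.28 points (exact p = 0.0625). When control sites were built without GFP RNAi replicate 1 or 2 of GAF it was −4.49 or −4.89 points, and without GAF RNAi replicate 2 it was −13.2.

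The peaks at GAF-alone sites also ranked lower within a list. Their median fold percentiles were 69.3 and 93.3 under GAF RNAi and 47.7, 49.9 and 65.6 under CLAMP RNAi. At the sites with CLAMP they were 72.9 and 94.3, and 62.3, 57.4 and 75.1. The difference was −7.22 ± 5.29 percentile points (SD, n = 5; lower in 5 of 5 lists, exact p = 0.0625, adjusted p = 0.0833). Without GAF RNAi replicate 2 it was −8.78, and without GFP RNAi replicate 1 of GAF in the building of sites −4.74. With only regions at a −log10 q of at least 5 it was −3.1 (exact p = 0.375), so the lists no longer all gave 1 direction.

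No difference from GAF-alone sites on X was shown in how often GAF was called. On X the lists called 77.8% and 60.9% under GAF RNAi and 87.0%, 80.6% and 93.0% under CLAMP RNAi. The difference of autosomes minus X was −1.52 ± 3.87 points (SD, n = 5; range −6.12 to 3.21, exact p = 0.438, adjusted p = 0.5), and −2.71 without GAF RNAi replicate 2. The autosomal sites were higher in both GAF RNAi lists and lower in all 3 CLAMP RNAi lists. Their fold percentile was lower than on X by −3.67 ± 2.22 points (SD, n = 5; lower in 5 of 5 lists, exact p = 0.0625, adjusted p = 0.0833). Without GAF RNAi replicate 2 that difference was −4.27, and ranked by −log10 p in place of fold it was −0.389 (exact p = 0.688).

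The 270 autosomal GAF-alone sites inside MSL3 control sites were called less often, in the RNAi lists and in control replicate 3 alike. The lists called 47.4% and 51.5% of them under GAF RNAi and 51.9%, 46.3% and 54.1% under CLAMP RNAi. Sites outside MSL3 were higher by 28.1 ± 8.66 points (SD, n = 5; range 12.6 to 32.8, 5 of 5 lists, exact p = 0.0625, adjusted p = 0.0833). In the control lists, which chose the sites, those inside MSL3 were called at 99.6%, 97.8% and 43.7%. Sites outside were called at 98.5%, 97.8% and 76.1% there. The gap was thus 32.4 points in control replicate 3, without either RNAi. Of the sites inside MSL3 41.1% were in all 3 control lists, against 72.4% outside. Among sites in all 3 control lists the difference was 2.55 points (exact p = 0.125), and without GFP RNAi replicate 1 or 2 of GAF it was 3.41 or 2.79 points. It was 43.9 points without MSL3 control replicate 4, 13.1 (exact p = 0.125) for sites that no CLAMP or MSL3 control list touched, and 32.0 without GAF RNAi replicate 2. The gap was thus smaller where all 3 control lists supported a site.

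**Figure D4:**
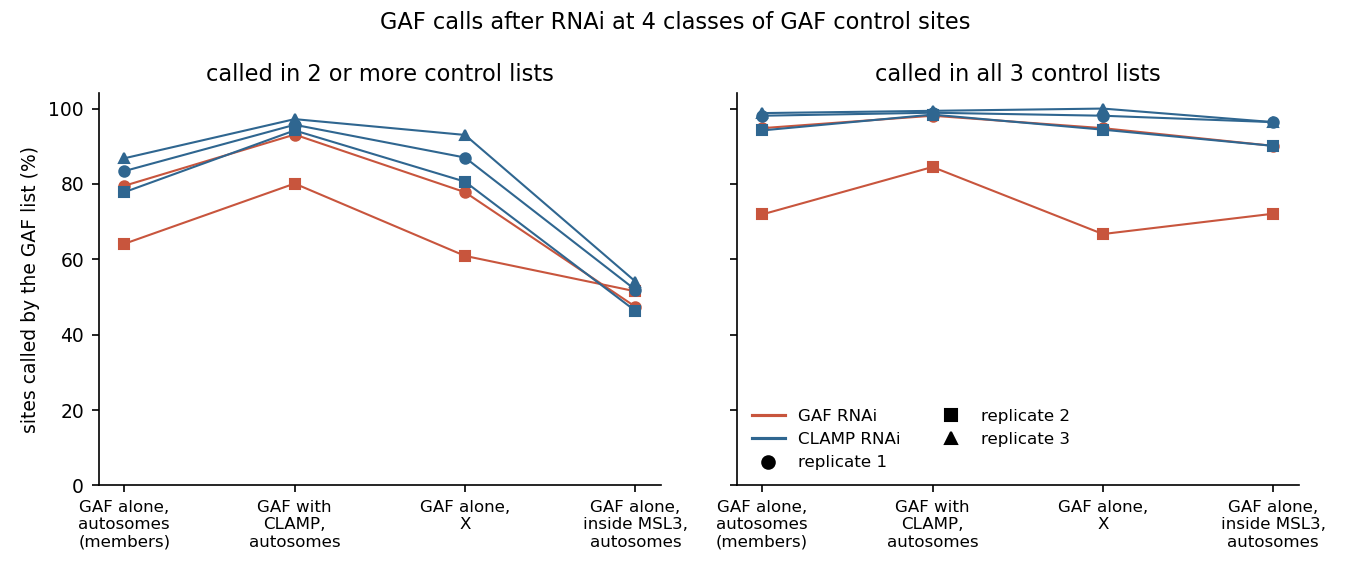
Percentage of GAF control sites called by each GAF list after GAF RNAi or CLAMP RNAi (lines by RNAi, point shape by replicate) in 4 classes of sites, for sites in 2 or more control lists (left) and in all 3 (right). On the left the GAF-alone autosomal sites lie 10.4 to 16.4 points below the sites with CLAMP in every list, and on the right the mean gap is 4.28 points.

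CLAMP was called at part of these sites, though not by 2 control libraries at the same place as the rule requires. In the control lists CLAMP was called at 241, 1 and 218 of the 1299 sites (18.6%, 0.0770% and 16.8%). No control list of CLAMP touched 847 sites, 1 list touched 444, and 8 were touched by 2 lists whose peaks did not overlap each other. Under GAF RNAi the 2 CLAMP lists called 253 and 264 sites (19.5% and 20.3%), a mean of 19.9% ± 0.599 (SD, n = 2). At least 1 of the 2 called 359 sites (27.6%), against 53.5% of all GAF control sites. Control and GAF RNAi values are not compared here, since the rule removed every place that 2 control lists of CLAMP called. For the same reason a share below that of all GAF control sites is not read as a result.

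Under CLAMP RNAi the CLAMP lists called 10 sites (0.770%) and 0 sites, against 13.5% of all GAF control sites called by at least 1 of these lists. These lists held 749 and 430 regions, against 7524 and 7417 under GAF RNAi. The difference of GAF RNAi minus CLAMP RNAi was 19.5 points with no overlap of the groups (exact permutation p = 0.333, which is the smallest that 2 against 2 libraries allow). With each list cut to its strongest 430 regions the difference was 0.385 points, and with weaker CLAMP regions (−log10 q below 5) left out it was 7.7 points. At equal length the lists called 0.308% and 0.539% of the GAF-alone sites under GAF RNAi and 0.077% and 0% under CLAMP RNAi. The rule had removed every site at a CLAMP control site. Low values at this cut, or below those of all GAF control sites, are thus not read as a result. None of the sites was called by both CLAMP lists of CLAMP RNAi, against 6.93% of all GAF control sites.

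Both CLAMP lists of GAF RNAi called 158 of the sites (12.2%), against 39.9% of all GAF control sites. That is 62.5% of the calls of replicate 1 and 59.8% of those of replicate 2. Of the 158 sites, 130 had also been touched by at least 1 CLAMP control list and 28 by none. Sites already touched by a control list were called at 40.3% and 39.2% under GAF RNAi, and the 847 untouched sites at 8.38% and 10.3%. The CLAMP peaks had a median fold percentile of 59.6 and 67.0 within their lists, against 85.0 and 85.8 at the autosomal GAF sites with CLAMP. At GAF-alone sites on X the percentiles were 63.9 and 71.7. The rule removed sites at CLAMP control sites, here and on X. Values below those of all GAF control sites or of sites with CLAMP are thus not read as a result. Counting only regions with a −log10 q of 5 or more, the GAF RNAi lists called 105 and 95 sites (8.08% and 7.31%). At that limit they called 10.6% and 6.34% of GAF-alone sites on X and 78.8% and 67.7% of autosomal sites with CLAMP.

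Most of these CLAMP peaks stood by themselves. In the 2 GAF RNAi lists 249 of 253 and 247 of 264 sites had a peak that touched no CLAMP control site. CLAMP summits lay a median of 45 and 64.5 bp from the GAF summit, and 91.9% and 80.5% of them fell inside the GAF-alone site. Of the 3 sites with the best CLAMP rank, 2 were of another kind. At 3L:15527505-15528094 the CLAMP fold was 13.9 and 8.77 under GAF RNAi, but this peak had its summit outside the site and reached in from a CLAMP control site 108 bp away. The same held for 3R:8275103-8275724, 16 bp from a CLAMP control site, with folds of 6.39 and 5.86. At both sites control replicate 1 had a separate, weaker CLAMP peak inside the site, so the folds of the 2 conditions belong to different peaks.

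The second of the 3 by rank, at 3R:5220036-5220579, differed from both. It lay 22959 bp from the nearest CLAMP control site, and the CLAMP summits were inside it. CLAMP fold was 8.0 and 6.43 under GAF RNAi, 2.53 in control replicate 1, and CLAMP was not called there in the other control lists, as the rule requires of all but 1 list at a place, or under CLAMP RNAi. The site was named for its high CLAMP rank under GAF RNAi, and the rule limited its control calls. Its CLAMP folds are therefore not compared between conditions. GAF fold at the site was 7.55, 8.89 and 4.91 in control, 8.19 and 7.85 under GAF RNAi and 8.71, 7.08 and 9.48 under CLAMP RNAi. GAF was thus called in all 8 lists there, at folds that overlapped between conditions. These 2 CLAMP folds were the highest of any GAF-alone site whose peak stood clear of CLAMP control sites.

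CLAMP calls under GAF RNAi were more frequent near a CLAMP control site. The nearest CLAMP control site lay a median of 9004 bp away, and 226 of the sites had one within 1 kb. Of those 226, the GAF RNAi lists called 30.5% and 33.6%. Of the 423 sites at 20 kb or more they called 14.7% and 14.7%. Median widths were alike, at 462 and 482 bp. Over all distances, 4 and 17 of the called sites were touched only by a peak of a CLAMP control site. They are included in these shares, and shares without them were not computed. GAF calls differed less with distance, at 84.5% and 62.4% under GAF RNAi within 1 kb and 77.8% and 68.1% at 20 kb or more. Under CLAMP RNAi GAF was called at 84.5%, 81.0% and 88.5% of the near sites and 83.9%, 76.6% and 86.8% of the far ones.

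**Figure D5:**
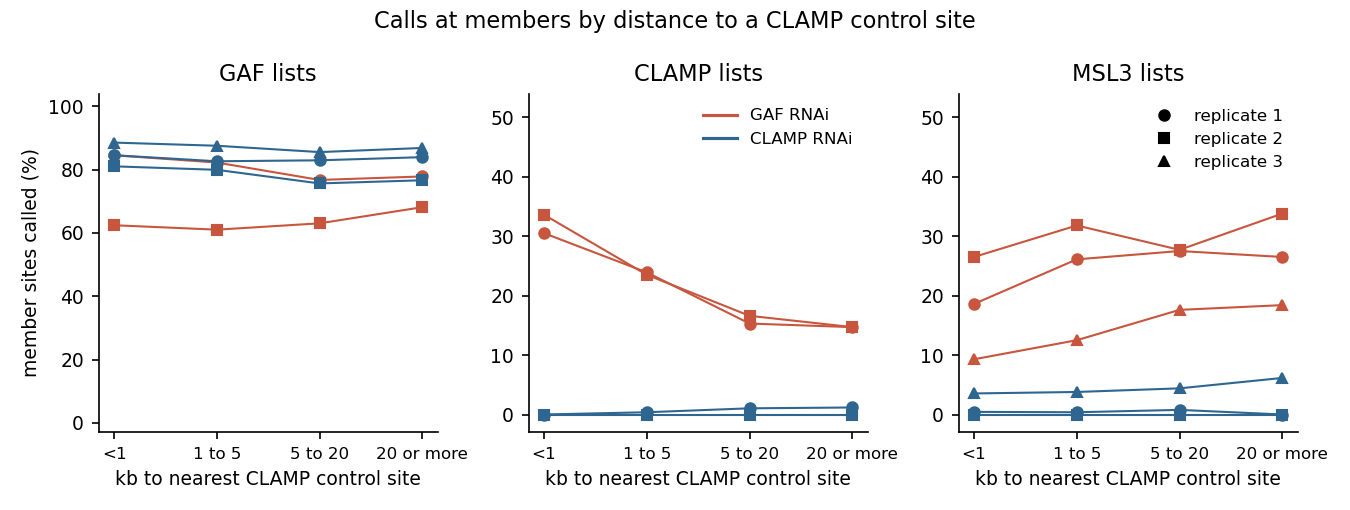
Percentage of GAF-alone sites called by GAF, CLAMP and MSL3 lists after GAF RNAi or CLAMP RNAi (lines by RNAi, point shape by replicate) against distance in kb to the nearest CLAMP control site; the vertical scale of the left panel differs from the other two. CLAMP calls under GAF RNAi fall from 30.5% and 33.6% within 1 kb to 14.7% at 20 kb or more, and GAF calls change less with distance in each list.

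CLAMP calls were also set beside those on X, where GAF-alone sites were called at 22.9% and 17.3% under GAF RNAi and at 0% in both lists of CLAMP RNAi. The difference of autosomes minus X was 0.107 ± 2.68 points (SD, n = 4; range −3.41 to 3.07, exact p = 1, smallest possible 0.125). The sign of this value changed under several settings, and a difference of a few points either way is within the range of the 4 libraries.

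The nearest and farthest sites illustrate the range. The site 14 bp from a CLAMP control site, at 2R:15311387-15312211, was called by all 5 GAF lists and by CLAMP only in GAF RNAi replicate 2, at a fold of 4.46. At 25 bp, 3R:9470393-9471009 was called by all 5 GAF lists and by CLAMP in 1 control list. The farthest site, at 3L:24394854-24395132, lay 1457817 bp from a CLAMP control site. It was weak, with GAF folds of 1.5 and 2.17 in control replicates 1 and 2 and no GAF call in the other 6 lists. Next came 2L:15264374-15264979 at 203426 bp, called by all 8 GAF lists at folds of 4.26 to 9.77, and 2L:20084717-20085214 at 196932 bp, called by 2 of the 5 RNAi lists.

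MSL3 regions touched some of the sites in every condition. In the 4 control lists MSL3 touched 95, 38, 0 and 377 sites, which is 7.31%, 2.93%, 0% and 29.0%. Under GAF RNAi it touched 329, 394 and 200 (25.3%, 30.3% and 15.4%), a mean of 23.7% ± 7.60 (SD, n = 3). Under CLAMP RNAi it touched 5, 0 and 61 (0.385%, 0% and 4.70%), a mean of 1.69% ± 2.61 (SD, n = 3). The GAF RNAi lists all lay above the CLAMP RNAi lists. The control values were limited by the rule and are not compared.

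The difference of GAF RNAi minus CLAMP RNAi was 22.0 points (exact permutation p = 0.1, the smallest that 3 against 3 libraries allow; adjusted p = 0.3). These MSL3 lists covered 27.6%, 27.3% and 20.3% of the autosomal arms under GAF RNAi and 0.711%, 0.0371% and 12.3% under CLAMP RNAi. The share of sites touched was below the share of the arms covered in 5 of the 6 lists and above it in GAF RNAi replicate 2. The rule had removed every site at an MSL3 control site, and a wider site is touched more easily. This comparison is thus not read as a result. With each list cut to its strongest 103 regions the difference was −0.0257 points, where no list touched more than 0.154% of the sites. With regions of a −log10 p of at least 3 the difference was 0.334 points (exact p = 0.4). MSL3 calls did not follow GAF strength as CLAMP calls did: from the weakest to the strongest group of 320 sites they went from 31.9% to 21.9%, 25.9% to 33.4% and 27.5% to 8.12% in the GAF RNAi lists. They were lower within 1 kb of a CLAMP control site (18.6%, 26.5% and 9.29%) than at 20 kb or more (26.5%, 33.8% and 18.4%). At the autosomal GAF regions of 1 control list they were 60.0%, 38.5% and 62.5%, above the GAF-alone sites in each list. In all the lists together, 6 regions at GAF-alone sites had q below 0.05, and the median fold was 1.34 to 1.88 in the lists that touched any.

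All 3 MSL3 lists of GAF RNAi touched 40 sites (3.08%), against 3.04% of all GAF control sites. At least 1 touched 637 (49%), against 48.1%, so both shares were close to those over all GAF control sites. At least 1 list of CLAMP RNAi touched 66 sites (5.08%), against 5.87%, and none of the sites was in all 3, against 0.0621%. The 3 sites touched by the most MSL3 lists of the RNAi conditions, at 2R:3484718-3485503, 3R:12702242-12702759 and 3R:13384378-13384774, were each in all 3 lists of GAF RNAi and 1 of CLAMP RNAi. Their MSL3 folds under GAF RNAi ran from 1.31 to 1.94. GAF was called at each of them by 4 of the 5 RNAi lists.

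In 5 of 6 RNAi lists MSL3 touched GAF-alone autosomal sites more often than autosomal GAF sites with CLAMP. In 1 list both were at 0. In the control lists, which the rule limited, GAF-alone sites were touched at 7.31%, 2.93%, 0% and 29.0%. Sites with CLAMP were touched at 3.66%, 0.431%, 0% and 40.0% there, so control replicate 4 went the other way. Over the 6 RNAi lists the difference was 2.95 ± 3.48 points (SD, n = 6; range 0 to 8.40; exact sign-flip p = 0.0625, adjusted p = 0.0833). It was 1.43 to 1.87 points when GFP RNAi replicate 1 or 2 of GAF was left out of the site building or MSL3 replicate 3 of GAF RNAi was left out. It was 0.0283 (exact p = 0.5) with equal-length lists, 0.0233 (exact p = 1) at a −log10 p of at least 3 and 1.72 (exact p = 0.375) for sites that no CLAMP or MSL3 control list touched. Against GAF-alone sites on X the difference was 7.17 ± 6.98 points (SD, n = 6; range 0 to 15.9; exact p = 0.0625, adjusted p = 0.0833), again with 1 list at 0 in both. With equal-length lists it was 0.0642 points (exact p = 0.125) and with a −log10 p of at least 3 −0.00926 points. GAF sites on X that touch an MSL3 control site are in neither class.

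Of the 1299 sites, 687 (52.9%) had another GAF-alone site within 10 kb. The nearest other GAF-alone site was a median of 8328 bp away and the nearest GAF control site of any class 2785 bp. Joining sites no more than 10 kb apart gave 612 single sites, 195 pairs and 84 runs of at least 3 that held 297 sites. The longest were 7 sites at 3L:15083362-15100910, 7 at 3R:5166565-5185446 and 6 at 3R:16605626-16617267, the shorter of 2 runs of 6. In the run of 7 on 3R, the GAF RNAi lists called 7 and 4 sites, the CLAMP RNAi lists 6, 5 and 7, and CLAMP was called at 5 sites under GAF RNAi. In the run of 7 on 3L, the GAF RNAi lists called 5 and 1, the CLAMP RNAi lists 4, 3 and 4, and CLAMP was called at 1. The 2 runs of equal size thus differed in how many of their sites stayed called. Runs were not counted among all GAF control sites, so nothing particular to the GAF-alone sites can be read from them.

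The sites were also counted by arm. Within a GAF list the share of sites called differed between arms by 1.35 to 9.54 points, with the widest range, 73.1% to 82.6%, in GAF RNAi replicate 1. CLAMP lists of GAF RNAi ranged over arms from 17.5% to 21.6% and from 18.4% to 25.3%.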

How the data were processed

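Peaks were called in each library by the authors with MACS2 2.1.1 after alignment with Bowtie on build dm3, per the submitters' processing notes; the Bowtie version, the MACS2 options and its control are not given in the sources used here. GAF and CLAMP lists hold narrow peaks and MSL3 lists broad regions. Each deposited region carries a fold enrichment, a ratio given by the authors' peak caller. The deposited −log10 p and −log10 q values belong to each library on its own, and the lowest −log10 p is 1.3 for GAF and CLAMP and 1.0 for MSL3. The deposited narrow peaks also give the offset of the summit from the start. Read depth is unknown, so a missing call is not an absence of binding, and no interval that needs depth is given.

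Regions off the 6 arms, 1.5% of the total, were dropped. The members and the lists of sites were chosen with earlier results of these data known. A site was called in a list if they shared 1 bp. Libraries were the unit of replication, compared by two-sided exact permutation or sign-flip tests, with Benjamini-Hochberg adjustment over 3 antibodies or 8 comparisons of classes. Fold percentiles rank a site's best peak within its list. Named sites are the 5 of best mean control GAF rank, the 3 of best control rank lost under each RNAi, the 3 of best CLAMP rank in both lists of an RNAi, the 3 in the most MSL3 lists, the widest, the 3 nearest to and 3 farthest from a CLAMP control site, and the 3 longest runs; the site at 3R:5220036-5220579 was described at more length after its values were seen. Alternatives were equal-length lists, stricter limits, an overlap of 50%, stricter membership, 200 bp summit windows, a replicate block and leaving out single lists. Coordinates are 1-based on dm3. Genes and sequences of dm3 were not used here. Overlap counting was tested on simulated data, with 0 disagreements in 1600 regions. Computations used Python 3.11.15, numpy 2.4.6 and scipy 1.17.1, and figures matplotlib 3.10.9.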

Additional observations from a re-analysis of the deposited data

How the results depend on the processing

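None of the comparisons could pass 0.05: over 6 MSL3 lists 0.0312 is possible in principle, but 1 list had no call in either class, which leaves 0.0625. Such p-values say nothing about stability. The 3 differences between GAF RNAi and CLAMP RNAi kept their direction under the alternatives with 2 exceptions. These were 4.44 points for GAF lists limited to a −log10 q of 5 or more and −0.0257 points for MSL3 lists of equal length. The latter rests on lists that each touched at most 0.154% of the sites, too few to read a direction. The CLAMP difference was far smaller, though, at that q limit (7.7) and with equal-length lists (0.385). So was the MSL3 difference at a −log10 p of 3 or more (0.334, exact p = 0.4). The cause was not tested. Leaving out single lists gave −18.6 to −3.16 points for GAF, where GAF RNAi replicate 1 or 2 moved the value most, 19.1 to 22.5 for CLAMP and 17.3 to 26.1 for MSL3. With 550 sites that no CLAMP or MSL3 control list touched, in place of 1299, the CLAMP difference was 8.55 points. Without MSL3 control replicate 4 there were 1470 sites, and leaving out a GAF control list gave 971 to 1257.

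Lost sites under GAF RNAi numbered 67 when only regions with a −log10 q of at least 5 counted, and 35 to 264 with single lists left out. Under CLAMP RNAi they numbered 22 with equal-length lists, 28 at that limit of q and 2 to 131 with single lists left out. Fewer lists make it easier for a site to be in all control lists or in none of the RNAi. Under these alternatives lost sites were not counted among all GAF control sites, so nothing particular to the GAF-alone sites can be read from them.

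GAF calls at GAF-alone sites stayed below those at sites with CLAMP and above those inside MSL3 under all 15 alternatives, with GAF lists left out giving −14.6 to −4.49 and 2.79 to 32.0 points, and MSL3 control replicate 4 left out giving −15.6 and 43.9. The difference from X in GAF calls turned to 0.764 for sites in all 3 control lists and ranged from −2.71 to 0.626 with lists left out, positive without GFP RNAi replicate 1 or 2 (0.626 and 0.278). The difference from X in CLAMP calls turned to −0.376 at the q limit, −0.242 with 50% overlap and −0.753 in 200 bp windows, a setting chosen after seeing the data. With lists left out it ranged from −0.88 to 1.28, and was −0.352, −0.155, −0.114 and −0.88 without GFP RNAi replicates 1 and 2 of GAF, CLAMP RNAi replicate 1 and GAF RNAi replicate 2 of CLAMP. In MSL3 calls it was −0.00926 at a −log10 p of at least 3.

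Whether replicate numbers pair the lists was not settled. Deviations of same-numbered lists from their group means correlated at −0.0958 to 0.0633 over 3219 GAF control sites. Those of differently numbered lists correlated at −0.0784 to 0.144. In a group of 2 lists the deviations mirror each other, so this check cannot show that pairing is absent. With the number as a replicate block the differences were −8.78 points (exact p = 0.5) for GAF, 19.5 (exact p = 0.5) for CLAMP and 22.0 (exact p = 0.25) for MSL3.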
